A study of Macaca mulatta with 23 samples.

Results

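Isolated positions are the table's loneliest measured cytosines: autosomal positions with no other measured position within 1000 bp on either side, apart from at most 1 neighbour exactly 1 bp away. They were chosen by spacing alone, with no methylation value. There were 2382 of them among 428538 autosomal positions, or 0.556%, in a table of 444312 positions. Of the 2382, 2064 had no neighbour at all and 318 formed 159 pairs of positions 1 bp apart. The distance to the nearest other position, such a partner set aside, had a median of 19336.5 bp and ran from 1010 to 2095409 bp. A further 106 positions on the X and Y chromosomes met the same spacing and were left out.

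The levels came from reduced representation bisulfite sequencing of DNA from 1 brain region, the central amygdala, in 23 rhesus monkeys (Macaca mulatta), 1 library per monkey. A level is the share of reads at a position that were read as methylated, in percent, and differences between levels are in percentage points. The left nucleus was sampled in 11 monkeys and the right in 12, and no monkey gave both. Ages ran from 1.1 to 2.13 years, and the score for anxious temperament, given by the labels as 1 continuous number per monkey, ran from -1.48 to 1.43. The labels name no treatment or genotype, and by the labels the animals differ in score, age and hemisphere. Their identifiers also form 2 series, 12 starting with r and 11 starting with B. Other differences between the animals are not known.

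In mammalian DNA most CpG cytosines that lie far from other CpGs carry a methyl group, while CpGs packed into islands, often at gene starts, are mostly free of it. DNA methyltransferase 1 copies the mark onto the new strand after replication, so both strands of a CpG usually match. The assay used here cuts at CCGG and keeps short fragments, which favours dense CpGs, so CpGs far from any other measured one are rare in it. Bisulfite converts unmethylated cytosine so that it is read as thymine, and a thymine in the monkey's own DNA is read in the same way.

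Spacing here means spacing within the deposited table on human coordinates, and spacing in the monkey genome was not examined. No genome of the human build hg19, on which the coordinates stand, was used, so the bases around each position, their strand and the CpG density of the DNA were not read. Chromosome numbers, bands, lengths and ends given here are those of the human build, not of the monkey genome. The human bands give a coarse check on the notion of sparse DNA. Dark Giemsa bands (the 2 darkest classes, gpos75 and gpos100), which are gene-poor and AT-rich, make up 29.4% of autosomal length but held 15.3% of isolated positions (365), against 12.4% of all other autosomal positions. Light bands (gneg) make up 42.4% of the length and held 58.6% of isolated and 61.8% of other positions. By this measure the isolated positions lay mostly where the rest of the assay lies, and the bands do not place them in sparse DNA. They are therefore called isolated and nothing more.

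2 libraries stood apart. The library of left 3 had no value at 62.9% of the isolated positions, and that of right 9 had none at 47.2%, while the median library lacked 9.19%. At isolated positions with a mean between 20% and 80%, 45.8% of the values of right 9 were exactly 0 or 100%, while in the remaining 22 monkeys this share was 3.51% to 14.2%. Results are given with and without both libraries where they move. The read depth behind a value is unknown, and the number of isolated positions with a value ran from 884 to 2316 per monkey.

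Isolated positions did not form 1 methylated class. Their mean levels fell into 2 heaps: 41.1% of them (978) had a mean under 10%, and 30.4% (724) lay over 80%. Another 24.5% (584) lay between 20% and 80%. The median was 36.5%, with quartiles of 2.17% and 85.3%. Positions on their own and positions in pairs were alike in this, with 41.1% and 40.6% under 10% and 30.3% and 31.1% over 80%. Among all other autosomal positions 56.8% had a mean under 10% and 21.1% lay over 80%.

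**Figure D1:**
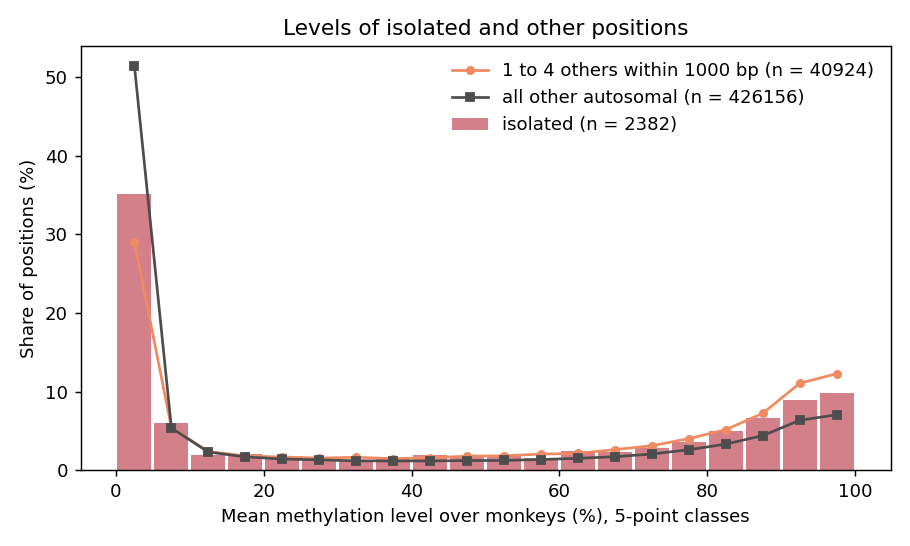
Share of positions (%, vertical axis) by mean methylation level over monkeys (%, horizontal axis, classes of 5 points) for isolated positions (bars), positions with 1 to 4 others within 1000 bp (circles) and all other autosomal positions (squares). Isolated positions have 35.1% in the lowest class and 9.78% in the highest, between the other sets at the low end.

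In each monkey the isolated positions averaged a higher level than the other autosomal positions. The mean per monkey ran from 38.8% (left 11) to 45.9% (left 4) at isolated positions, with a median of 42.3%, and from 25.6% (left 3) to 31.3% (left 1) at the others, so the 2 ranges did not overlap. The means were 42.1% ± 1.7 (SD, n = 23) and 29.8% ± 1.57 (SD, n = 23). The difference of 12.3 ± 1.45 points (SD, n = 23) was positive in 23 of 23 monkeys (2-sided sign-flip permutation test, p = 1e-05, the smallest that 100000 resamples can give). This test belongs to a family of 9 within-monkey comparisons, over which p-values were adjusted by the Benjamini-Hochberg method. Its adjusted p was 1.29e-05. Sign-flip p-values given below without an adjusted p lie outside that family and are unadjusted. Each of the 9 takes the same fixed positions in each monkey. Its p therefore measures agreement over monkeys, not the variation between positions. Where no monkey lacked a value (255 isolated, 155334 others) the levels were 34.5% and 19.8%.

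The size and sign of the difference depended on the set it was taken against. Autosomal positions were split by the number of other positions within 1000 bp, a 1-bp partner set aside. From 20 others upward the median level was 1.87% or less, with 1.35% at 50 to 99 others. The nearest class, 40924 positions with 1 to 4 others, had the highest median of the 6 classes, 54.2%. Against that class the isolated positions were lower, not higher: 42.1% ± 1.7 against 47.6% ± 1.69 (SD, n = 23), a mean difference of -5.52 points that was negative in 23 of 23 monkeys (sign-flip permutation p = 1e-05, adjusted p = 1.29e-05). They were also lower than the 158569 positions with 5 to 19 others, which averaged 43.1% ± 1.52 (SD, n = 23), though with a mean difference of -0.999 points and in 20 of 23 monkeys (sign-flip permutation p = 0.00017, adjusted p = 0.000191). That gap is small beside the quartiles of the isolated positions, 2.17% and 85.3%. How far it depends on which positions happened to be measured was not tested. Level thus did not go up steadily with isolation, and its peak lay in the class next to the isolated one. The comparisons with these 2 classes were chosen after the class values had been seen.

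**Figure D2:**
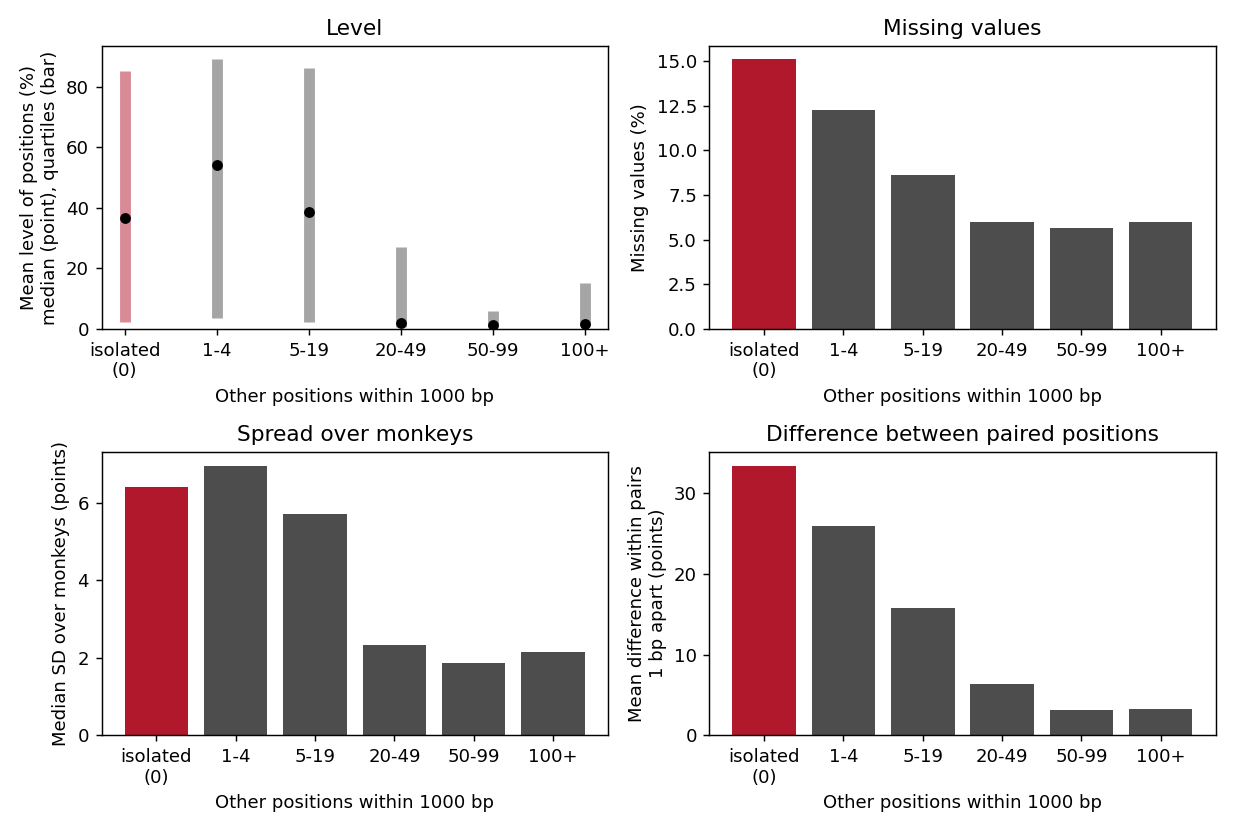
Autosomal positions by number of other positions within 1000 bp (horizontal axis): median and quartiles of the mean level (%), missing values (%), median SD over monkeys (points) and mean difference between the mean levels of positions 1 bp apart (points). Isolated positions (red) have the highest share of missing values, 15.1%, and the largest difference within pairs, 33.4 points, but neither the highest level nor the largest SD.

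A position at 0 in every monkey that had a value there was a frequent sight among the isolated ones. There were 264 such positions, 11.1% of the isolated set and 27% of those with a mean under 10%. The shares were 6.36% among positions with 1 to 4 others and 2.3% among all other autosomal positions. Isolated positions had fewer values each, so the count was repeated where none was missing. Among those positions the shares were 8.63% (22 of 255), 5.07% and 1.22%. Over all positions, the order changed with a limit of 5% in place of 0. At 5% or less in every monkey were 17.8% of isolated positions, 14% with 1 to 4 others and 27.2% of all others. Per monkey, 29.2% ± 4.65 of isolated values and 31.2% ± 9.97 of other values were 0 (SD, n = 23). Of the 264, 258 were positions without a partner and 6 belonged to pairs. At the other end, 17 isolated positions (0.714%) were at 95% or more in every monkey. Without the positions at 0 in every monkey, isolated positions averaged 47.2% and those with 1 to 4 others 50.8%, and the difference of -3.63 points was negative in 23 of 23 monkeys.

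The mean level showed no steady order with the distance to the nearest other position. The 156 isolated positions with a neighbour 1001 to 2000 bp away averaged 40.6% ± 1.59 (SD over monkeys, n = 23), and the 262 with none within 100000 bp averaged 43.3% ± 2.71 (SD over monkeys, n = 23). Over 5 classes of distance the median level ran from 28% (20001 to 100000 bp) to 42.5% (5001 to 20000 bp), with no order by distance. The share over 80% was lowest in the nearest class, 24.4%, and highest in the farthest, 33.2%, while the share under 10% lay between 38.7% and 43.4% and the share of missing values between 14.6% and 15.8%. The isolated position farthest from any other, on chromosome 11 at 51550578 of hg19 (11p11.12), was 2095409 bp away from the next one. Its level was 95% ± 6.87 (SD, n = 23), with 22 monkeys at 92% or more and right 6 at 65%. The second, at chromosome 4, 31506049 (4p15.1), 781912 bp away, stood at the opposite end with a mean of 4.53% ± 5.8 (SD, n = 17). The third, at chromosome 4, 32603722 (4p15.1), averaged 77.1% ± 8.58 (SD, n = 22). The farthest positions thus span the whole scale.

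At the threshold, positions on both sides had mixed levels, and 3 on each side are too few to tell whether level changes there. The 3 isolated positions closest to it had their nearest neighbour 1010, 1013 and 1017 bp away and mean levels of 5.77% (chromosome 11, 65660293), 91.8% (chromosome 9, 133268199) and 11.4% (chromosome 16, 54610814). The 3 positions just outside it had theirs 999, 979 and 977 bp away and levels of 5.52% (chromosome 12, 109192663), 65.9% (chromosome 6, 31740604) and 98.4% (chromosome 22, 50483711).

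The level of an isolated position was hardly correlated with that of the next position in the table, a 1-bp partner set aside. Across 147 neighbouring positions 1001 to 2000 bp apart that included an isolated one, the correlation of mean levels was r = 0.136, against 0.25 across 1540 such neighbours without one. From 2001 bp on it lay between -0.0021 and 0.0598 with an isolated position and between -0.00634 and 0.0807 without. Neighbours 2 to 1000 bp apart cannot include an isolated position. Among these, r was 0.716 at 2 to 10 bp, 0.328 at 51 to 200 bp and 0.471 at 201 to 1000 bp. Pairs 1 bp apart are described below. These are correlations across positions, which share the libraries and are not independent replicates.

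Values were missing more often at isolated positions. Per monkey, the share without a value ran from 2.77% (left 9) to 62.9% (left 3) with a median of 9.19%, and from 0.736% (left 7) to 49.4% (left 3) with a median of 2.78% at the other autosomal positions. The ranges over monkeys overlapped, but each monkey lacked more of the isolated positions than of the others. The means were 15.1% ± 15.5 and 7.52% ± 10.9 (SD, n = 23), a difference of 7.57 points that was positive in 23 of 23 monkeys (sign-flip permutation p = 1e-05, adjusted p = 1.29e-05). Against positions with 1 to 4 others it was 2.86 points, again in 23 of 23 (sign-flip permutation p = 1e-05, adjusted p = 1.29e-05). Without left 3 and right 9 the shares were 11.3% and 4.89%.

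**Figure D3:**
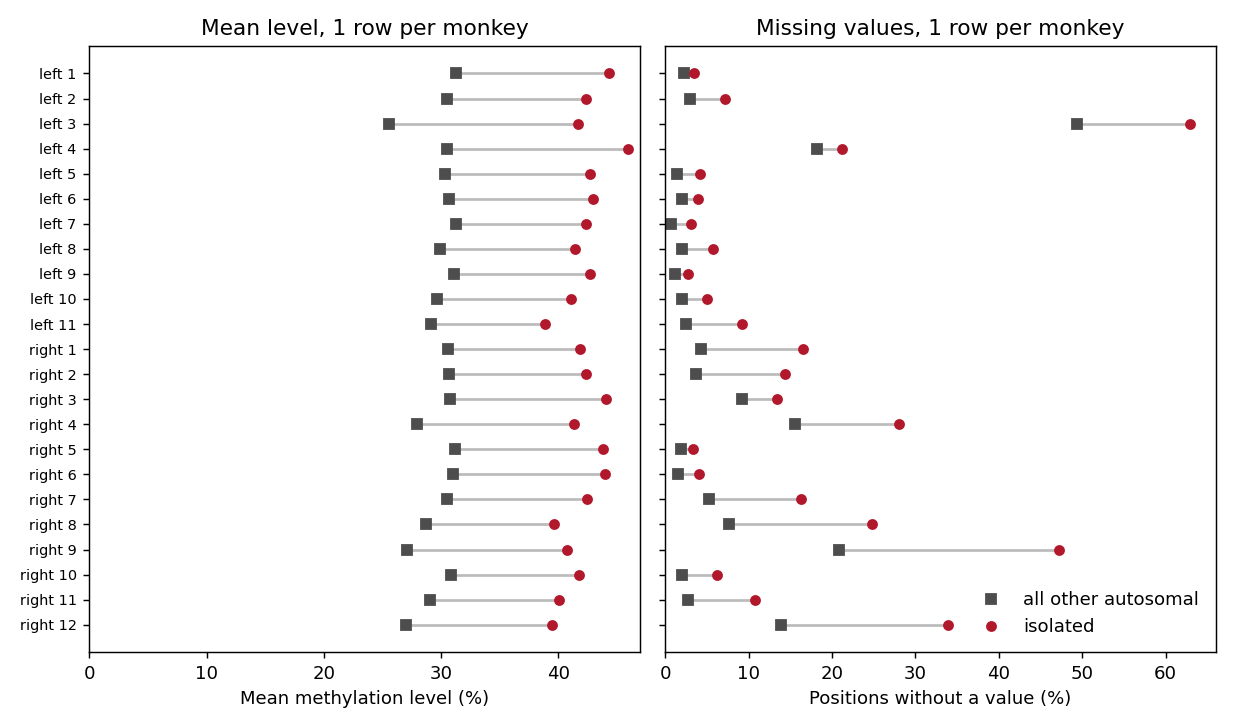
Mean methylation level (%, left) and share of positions without a value (%, right) in each monkey, 1 row per monkey, for isolated (circles) and all other autosomal positions (squares). In each row the circle lies to the right of the square in both plots; left 3, at 62.9%, and right 9, at 47.2%, have the most missing isolated positions.

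A value in all 23 monkeys was present at 10.7% of isolated positions (255), against 36.5% of the others, and 46.3% (1103) had values in at least 20 monkeys, against 79.3%. The table holds no position with fewer than 17 values, and 570 isolated positions (23.9%) sat at exactly that edge, with 6 monkeys missing, against 5.71% of the others. Isolated positions with more gaps than that are not in the table. Missing values were somewhat more frequent at levels between 20% and 80% (16.8%) than under 20% (13.9%) or over 80% (15.6%). Positions without a partner lacked 15.8% of their values and paired ones 10.6%.

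The spread over animals was larger at isolated positions over the whole set, but on average not at those measured in each monkey. The median SD over monkeys was 6.4 points at isolated positions and 3.5 at the others. Spread depends on level, so levels were matched: each monkey's mean absolute deviation from the mean of the position was compared within classes of 5 points of mean level. It was 6.72 ± 1.37 points at isolated and 5.72 ± 1.58 at other positions (SD, n = 23), and higher at isolated ones in 22 of 23 monkeys (sign-flip permutation p = 1e-05, adjusted p = 1.29e-05). The exception was left 3, with 7.27 against 7.34 points. Deviations are taken from a mean that all monkeys share, so the monkeys are not fully independent in this test. At positions with values in at least 20 monkeys the difference was 0.331 points in place of 0.993, and positive in 22 of 23 (sign-flip permutation p = 2e-05). At positions complete over monkeys it was 0.0163 points, 3.58 against 3.56, and higher in 10 of 23 (sign-flip permutation p = 0.766). There the direction varied with level. The median SD of complete isolated positions was higher under 30% and over 90%, with 2.04 against 1.39 points under 10% (132 isolated positions). It was lower from 30% to 90%, with 10.9 against 14 points at 50% to 60% (5 isolated positions). Over the whole set, the difference against positions with 1 to 4 others was 0.117 points, higher in 19 of 23 (sign-flip permutation p = 0.0222, adjusted p = 0.0222).

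**Figure D4:**
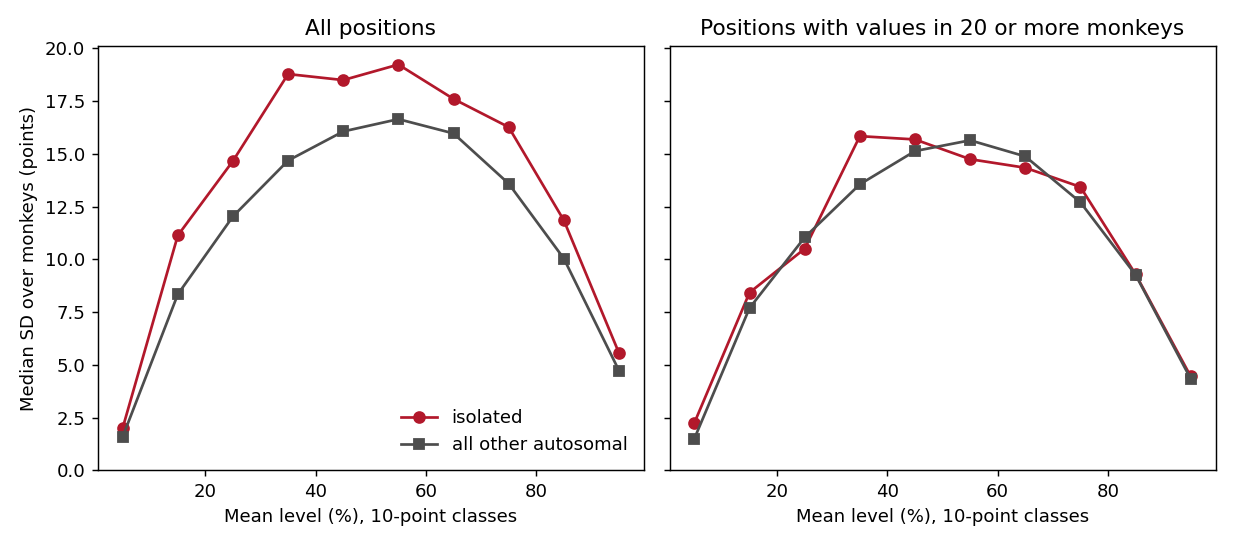
Median SD over monkeys (points) by mean level (%, classes of 10 points) for isolated (circles) and all other autosomal positions (squares), over all positions (left) and over positions with values in at least 20 monkeys (right). On the right the isolated median is the higher one at most levels, with the widest excess, 15.8 against 13.6 points, at 30% to 40% (31 isolated positions). It is the lower one at 20% to 30% (10.5 against 11) and at 60% to 70% (14.3 against 14.9). At 50% to 60% it is also lower, 14.7 against 15.6 (on the left 19.2 against 16.7).

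Levels that covered nearly the whole scale, with at least 1 monkey at 10% or less and at least 1 at 90% or more, occurred at 136 isolated positions, or 5.71%. The share was 5.84% with 1 to 4 others and 2.7% over all other positions. Without left 3 and right 9 it was 4.07% (97 positions), 3.93% and 1.35%. Among the 255 complete isolated positions, the one with the largest SD lies on chromosome 22 at 17393544 (22q11.1). There 18 monkeys were at 10% or less, 17 of them at 0, and right 6 was at 100%. Left 1, left 6, left 7 and left 10 lay at 51%, 47%, 50% and 52%, with no other monkey between the ends. These are 3 separate levels, near 0, 50 and 100%. At chromosome 11, 17974271 (11p15.1), a member of a pair, the levels ran from 21% (right 8) to 100%, with a median of 92%. Left 2, left 8, left 9, right 3 and right 11 lay between 45% and 54%, and left 3 at 67%. At chromosome 1, 62603271 (1p31.3), they ran from 0 to 87% with a median of 30%, the highest in right 9.

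The smallest SDs among complete isolated positions with a mean of 40% to 60% were these. At chromosome 1, 175442936 (1q25.1), a member of a pair, the level was 58.8% ± 5.61 (SD, n = 23) and all monkeys lay between 48% and 70%. Its partner 1 bp away averaged 5%, so this is the high member of a discordant pair. At chromosome 19, 10088142 (19p13.2), the level was 51.6% ± 9.29 (SD, n = 23), from 36% to 77%. At chromosome 14, 22849960 (14q11.2), it was 47.4% ± 9.37 (SD, n = 23), from 32% to 65%. None of these 3 positions had a monkey at 10% or less or at 90% or more. They were picked for their small SD, so that value is a description.

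Single animals far from all others were spread over 7 monkeys, with right 9 the most frequent. At 30 of the 255 complete isolated positions (11.8%) 1 monkey lay at least 20 points from the nearest other monkey, and in 15 of these it was right 9, in 5 right 8 and in 4 right 12. The 3 widest gaps all belonged to right 9. It stood at 100% at chromosome 2, 39743848 (2p22.1), where the next monkey was at 25%. It stood at 0 at chromosome 2, 218474709 (2q35), where the next was at 73%, and at 0 at chromosome 18, 34107658 (18q12.2), where the next was at 60%. Without left 3 and right 9, 13 positions had a gap of at least 20 points and 0 had one of 50 points, against 4 with both libraries.

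The pairs among the isolated positions were compared within each monkey. Positions 1 bp apart have the spacing of both strands of 1 CpG, although the table gives no strand. In each monkey the 2 members of an isolated pair differed by far more than members of other pairs. The mean absolute difference per monkey ran from 32.3 (left 3) to 40.1 points (right 2) over isolated pairs and from 8.5 (left 3) to 13.5 points (right 9) over the 93999 other autosomal pairs, with no overlap. The means were 36.6 ± 2.29 and 10.1 ± 0.958 points (SD, n = 23), and the difference of 26.6 points was positive in 23 of 23 monkeys (sign-flip permutation p = 1e-05, adjusted p = 1.29e-05). Pairs with 1 to 4 others within 1000 bp stood between, at 27.9 ± 1.87 points (SD, n = 23), and the isolated pairs exceeded them by 8.7 points in 23 of 23 monkeys (sign-flip permutation p = 1e-05, adjusted p = 1.29e-05). Levels were not matched in these comparisons. Both members had a mean under 20% in 61.6% of all other pairs, which leaves those little room to differ. The share was 28.2% in pairs with 1 to 4 others and 25.2% in isolated pairs. Between mean levels over monkeys, the difference narrowed from 33.4 points in isolated pairs and 25.9 with 1 to 4 others to 15.7, 6.36 and 3.16 points in the next 3 classes, and was 3.3 points with 100 or more.

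The differences followed a simple pattern. In 74 of 159 isolated pairs (46.5%) the 2 mean levels were over 20 points apart, against 11.1% of other pairs. In 71 of the 74 the lower member had a mean under 10%, with a median of 4.29%, while the higher member lay anywhere from 22.3% to 98.8%, with a median of 83.1%. Among other pairs over 20 points apart 58.1% had such a member, and among those with 1 to 4 others 89.6%, so a near-zero member was not confined to isolated pairs. In 36 isolated pairs (22.6%) 1 member was under 20% and its partner over 80%, against 3.61% of other pairs. The high member was at the lower coordinate in 22 of these and at the upper in 14. In the 47 isolated pairs with both means over 20%, a choice that by itself leaves out pairs with a member near 0, the mean difference was 6.24 points. The other 3 discordant pairs are among these 47. The corresponding mean was 6.21 points in pairs with 1 to 4 others and 8.41 in all other pairs. In 66 of the 74 discordant pairs (89.2%) the same member was higher in every monkey with both values, against 83.6% of such pairs with 1 to 4 others and 72.2% among all other pairs. Over pairs, the correlation of the 2 means was r = 0.244 (n = 159) for isolated and 0.829 (n = 93999) for other pairs, as a description across pairs that share their libraries.

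**Figure D5:**
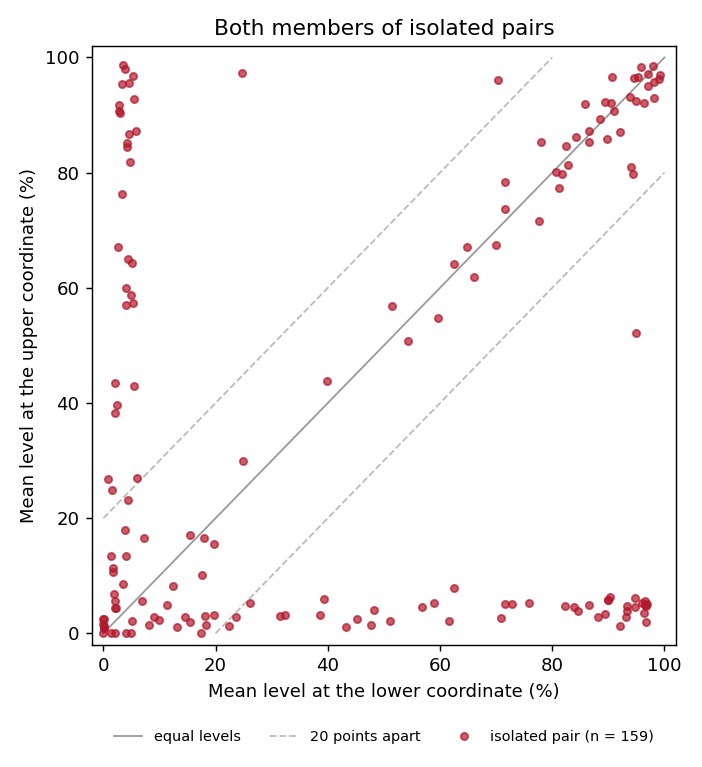
Mean level over monkeys (%) of the member at the lower coordinate (horizontal axis) and at the upper coordinate (vertical axis) of the 159 isolated pairs, with lines for equal levels and for levels 20 points apart. Points gather along the line of equal levels and along both axes, where 1 member stays under 10%.

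The widest pair lies on chromosome 10 at 74618991 and 74618992 (10q22.1). Its lower coordinate stood at 3.44% ± 4.08 (SD, n = 18), at most 12% in any monkey, and its upper coordinate at 98.8% ± 2.14 (SD, n = 17), at least 92%. The second, on chromosome 10 at 123002929 and 123002930 (10q26.12), had the reverse order, with 96.7% ± 3.21 (SD, n = 21) and 2% ± 2.53 (SD, n = 22). The third, on chromosome 11 at 62750054 and 62750055 (11q12.3), stood at 3.77% ± 2 and 97.9% ± 2.47 (SD, n = 22 each). In all 3 the ranges of the 2 members over monkeys did not overlap. Among the 11 isolated pairs with both members measured in each monkey, 5 were over 20 points apart, and their mean difference per monkey was 33.7 points against 5.29 in 29463 complete other pairs.

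Isolated positions occurred on each autosome of the human build. Their share of the measured positions was lowest on chromosome 19, at 0.303% (115 of 37983), and highest on chromosome 21, at 0.867% (32 of 3693). Per megabase, however, chromosome 19 had the most, 1.94, and chromosome 13 the fewest, 0.373. Their mean level ran from 35.8% ± 2.37 on chromosome 7 to 52.1% ± 2.54 on chromosome 18 (SD over monkeys, n = 23). Within 5 Mb of a chromosome end of that build lay 12% of isolated positions (286), against 16.1% of the others. Their level there averaged 44.4%, against 42.3% elsewhere, while that of other positions was 35.4% and 29.7%. Over the 5 band classes from gneg to gpos100 the level of isolated positions stayed between 41.5% and 44.1%. Genes are not named, since no annotation on the build of these coordinates was used.

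The design relates methylation to the score, and age was taken into the same model. All positions measured in 20 or more monkeys whose lowest and highest levels lay 10 points or more apart (192151) were fitted with limma. Of the isolated positions 774 (32.5%) entered: they are the better measured and more variable ones. None passed at an adjusted p under 0.05 for the score (0 of 774), and over all tested positions the share was 0%. An unadjusted p under 0.05 was found at 31, or 4.01%, against 3.12% of all tested positions, 14 with a positive and 17 with a negative slope. The median slope was -0.119 points per score unit, against 0.0912 over all tested positions.

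The 6 isolated positions with the smallest p for the score had slopes from -30.1 to 12.3 points for each unit of score, all with a limma adjusted p of 1. The smallest p belonged to chromosome 20, 15529334 (20p12.1), which was low in all monkeys, from 0 to 11% with a median of 4%. The fitted slope there was -2.23 ± 0.758 (SE, n = 23; limma p = 0.00704). The steepest was at chromosome 18, 29601203 (18q12.1), where levels ran from 0 to 100%, with 5 monkeys at 10% or less, 5 at 90% or more and 11 between. Its slope was -30.1 ± 10.3 (SE, n = 21). At chromosome 17, 6714277 (17p13.1), the slope was 12.3 ± 4.36 (SE, n = 20), and at chromosome 20, 25403640 (20p11.21), 9.58 ± 3.27 (SE, n = 22). At the latter right 4, the monkey with the lowest score, had the lowest level, 60%, and right 1, right 8, right 9 and right 10 stood at 100%. The 2 others, in band 2p23.2 at chromosome 2, 28496997 and 28938794, averaged 96.4% and 96.3%. Left 11, with the highest score, had the lowest level at both, 86% and 67%.

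For age, 0 of 774 isolated positions passed with limma, against 0.0531% of all tested positions. An unadjusted p under 0.05 occurred at 49, or 6.33%, against 4.06%, 37 up and 12 down with age. The median slope was 2.25 points per year, against 0.523 over all tested positions. The smallest p was at chromosome 4, 71755715 (4q13.3), with a yearly slope of 54 ± 12.9 points (SE in 23 monkeys; limma adjusted p = 0.211). Left 1, left 4 and right 3 stood at 60%, 61% and 58% there, and all other monkeys at 35% or less. At chromosome 11, 45306397 (11p11.2), left 1 and left 4 were again highest, at 28% and 33%, over a median of 8.5% (slope 23.3 ± 5.89, SE, n = 22; limma adjusted p = 0.288). At chromosome 11, 465333 (11p15.5), the level was 13% or less in all monkeys (slope 10.3 ± 3.09, SE, n = 21; limma adjusted p = 0.591). Left 1 is the oldest monkey.

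Between hemispheres, 0 of 774 passed with limma, as over all tested positions (0%). Unadjusted p-values under 0.05 were found at 23, or 2.97%, against 3.48%, 12 higher and 11 lower in right samples. The smallest p was at chromosome 22, 42444556 (22q13.2), with levels from 69% to 94% and a median of 82% on the left, and from 83% to 100% with a median of 100% on the right. The groups overlapped, and the adjusted difference was 12 ± 3.33 points (SE, n = 20; limma adjusted p = 0.93). At chromosome 3, 185919317 (3q27.2), right samples were 12.7 points lower in the fit (coefficient -12.7 ± 4.13, SE, n = 23), and at chromosome 3, 52350246 (3p21.1), the coefficient was -14.4 ± 5.11 (SE, n = 20). For both the limma adjusted p was 0.93.

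The isolated positions were also averaged to 1 value per monkey, after each position was centred on its mean so that missing positions did not shift it. With the share of missing values this gave a family of 6 relations, all 2-sided and adjusted together. With the score, the centred level gave r = -0.105 (permutation p = 0.633, adjusted 0.844) and rho = 0.00445 (permutation p = 0.985, adjusted 0.986). Without right 4 and left 11, at the ends of the score, r was 0.0303. Within the 12 monkeys whose identifiers start with r it was 0.246, and within the 11 starting with B it was -0.27. The sources used here do not say what these letters stand for.

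With age, the centred level gave r = 0.443 (permutation p = 0.0378), which did not pass after adjustment (adjusted p = 0.227), and rho = 0.319 (permutation p = 0.139, adjusted p = 0.556). It was 0.39 without left 1 and right 2, the oldest monkeys, -0.0645 in the r monkeys and 0.547 in the B monkeys. The r monkeys cover ages of 1.18 to 1.45 years and the B monkeys 1.1 to 2.13 years, so series and age range cannot be told apart. Whether the values of -0.0645 and 0.547 differ was not tested. Without left 1 alone it was 0.329 (permutation p = 0.133). The other autosomal positions, centred in the same way, gave r = 0.333, and whether the 2 values differ was not tested. Over complete positions the plain mean gave r = 0.555 at isolated positions (permutation p = 0.00306, adjusted p = 0.0184 in the family with this measure in place of the centred level), which passed. Its rho was 0.461 (permutation p = 0.0274, not adjusted). At other complete positions r was 0.183, and whether the 2 r values differ was not tested. The r at complete isolated positions was 0.472 without left 1 (permutation p = 0.0263, not adjusted) and 0.385 without left 1 and right 2. It was -0.0528 in the r monkeys and 0.652 in the B monkeys. Right samples differed from left ones by -0.101 points in the centred level (-0.0525 ± 1.03, n = 12, against 0.0484 ± 1.36, n = 11, SD; permutation p = 0.844, adjusted p = 0.844).

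The share of missing isolated positions was not detectably related to score or to age. With the score, r was 0.0536 (permutation p = 0.808, adjusted 0.844) and rho was -0.00395 (permutation p = 0.986, adjusted 0.986). With age, r was -0.154 (permutation p = 0.448, adjusted 0.844) and rho was -0.0519 (permutation p = 0.815, adjusted 0.986). It was 18.2% ± 13.1 (SD, n = 12) in right and 11.7% ± 17.8 (SD, n = 11) in left samples (permutation p = 0.341, adjusted p = 0.844). Left 3, at 62.9%, carried much of the left mean. Without it the left samples averaged 6.55% ± 5.52 (SD, n = 10), 11.7 points under the right ones (unadjusted permutation p = 0.0125). Without left 3 and right 9 the right samples averaged 15.6% ± 9.88 (SD, n = 11), 9.04 points over the left ones (unadjusted permutation p = 0.0193). After these 2 libraries, right 12, right 4 and right 8 lacked the most isolated positions, 33.9%, 28% and 24.8%. They also lacked 31%, 22.9% and 22.3% of the positions with 1 to 4 others. The hemisphere difference was not tested at other positions, so it is not shown to be particular to isolated ones. Among r monkeys and among B monkeys the difference was 10.1 and 3.52 points with all libraries, 15.2 and 3.52 without these 2, and the r values with score were 0.191 and -0.117, those with age 0.00322 and -0.189. Without right 4 and left 11, at the ends of the score, the r with score was 0.209. Without left 1 and right 2, the oldest monkeys, the r with age was -0.0374.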

How the data were processed

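DNA was cut with MspI, size-selected and bisulfite sequenced, per the labels' protocols. Bismark 0.11.1 and build hg19 are named in the submitters' processing notes. The authors deposited methylation levels as a fraction from 0 to 1, rounded to 2 decimals, and no read counts. The sources used here do not state coverage filters or strand handling. The depth is unknown, so no interval or floor was computed.

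Fractions were multiplied by 100. A position was isolated if no other position lay within 1000 bp, a single one at 1 bp set aside. Values per monkey were compared by sign-flip permutation (100000 resamples) and relations by permutation. The whole table was modelled in R 4.3.3 with limma 3.58.1 (empirical Bayes with trend; score and age, and hemisphere for its own term), Benjamini-Hochberg adjusted over 192151 positions. A monkey without a value at a position was dropped from that fit. The code was checked against lmFit and tested on simulated data. Bands came from circlize 0.4.16, tables from Python 3.11.15, figures from matplotlib 3.10.9.

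Positions named follow a rule: smallest p (6 for score, 3 for age, 3 for hemisphere, 1 per pair), largest and smallest spread, widest gap of a single monkey, widest pairs, farthest and threshold positions (3 each). The members, lists and tests were chosen with earlier results of these data known. Other distances, scales, filters and omitted libraries were tried.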

Additional observations from a re-analysis of the deposited data

How the results depend on the processing

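No paired analysis was possible because left and right samples came from different animals and replicate numbers only count samples. Isolation within 500 or 2000 bp (2467 and 2226 positions) left the level difference at 11.97 and 12.39 points, and omission of left 3 and right 9 left it at 12.04. The level difference reversed against comparison sets chosen after seeing the data: -5.521 points against positions with 1 to 4 others, -3.628 there without positions at 0 in every monkey, -5.517 without left 3 and right 9, -6.535 at complete positions, and -0.9987 against positions with 5 to 19 others. The comparison set itself accounts for this sign. The spread difference was 0.0163 points at complete positions, where 255 isolated positions remained. The relation of level with age was weaker without left 1 (r = 0.3291), and the right minus left difference changed sign without it (0.06573 points, permutation p = 0.897). The relation with age was stronger at complete positions (r = 0.555, permutation p = 0.00306). The right minus left difference in missing isolated positions was 11.68 points without left 3 and 9.045 without left 3 and right 9, both under 0.05 unadjusted, and the r of that share with score was -0.02925 without both; these were added after seeing the data. For the score, 31 of 774 isolated positions had an unadjusted limma p under 0.05 in the main fit. The count was 15 of 528 where levels had to span 20 points or more. When left 3 and right 9 were omitted it was 47 of 1099. For hemisphere that omission gave 37 of 1099, in place of 23 of 774. The numbers tested moved together with the counts. Shares over all tested positions are not given for these settings, so no change in association is read from the counts. No isolated position passed the limma test for score, age or hemisphere under the alternatives run. Depth is unknown and its effect was not examined.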
